A study of Caenorhabditis elegans with 2 samples.

Results

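The 7 genes described here encode proteases of the worm intestine: the cathepsin B-like cysteine proteases cpr-1, cpr-3, cpr-4, cpr-5 and cpr-6, and the aspartyl proteases asp-1 and asp-3. They were taken by name from the annotation, 7 of 19973 protein-coding genes on the nuclear chromosomes of Caenorhabditis elegans. All 7 names were found, each with 1 annotated transcript and 1 start site. Their identifiers are WBGene00000781 (cpr-1), WBGene00000783 (cpr-3), WBGene00000784 (cpr-4), WBGene00000785 (cpr-5), WBGene00000786 (cpr-6), WBGene00000214 (asp-1) and WBGene00000216 (asp-3). cpr-1, cpr-3, cpr-4, cpr-5 and asp-1 lie on chromosome V, and cpr-6 and asp-3 on X. The measurement was ChIP-seq, in which DNA bound by a tagged protein is pulled down with an antibody and sequenced. The protein was DMD-6, which binds DNA through a DM domain. The single group held 2 biological replicates of strain RJP5356, allele rp168(dmd-6::GFP::AID::TEV::3xFLAG) on chromosome IV, in which the tags, GFP among them, were inserted by CRISPR at the gene's own locus. Whole L4 larvae, synchronised by starving hatchlings after bleaching, were collected at 48 hours, and the antibody was against GFP. Sex was not recorded and there was no second condition. A peak in whole animals does not say in which tissue the protein was bound, and the files give no expression, so the label "intestinal" was not checked here. It rests on background knowledge.

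Cathepsins are proteases that work in acidic compartments such as lysosomes, or are secreted into the gut lumen. In cysteine cathepsins such as cathepsin B the cut is made by a cysteine, and in aspartyl proteases such as cathepsin D and pepsin by a pair of aspartates. In C. elegans the gut cells both secrete digestive enzymes and carry many lysosomes. Genes of the worm intestine are known to depend on GATA factors, above all ELT-2, which bind the word TGATAA in their promoters. DM-domain proteins bind another kind of sequence, with a core close to ACANTGT.

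The sequences below reach 50 bp to either side of the summit, the point of highest signal, of the strongest peak at each start site. They are read on the strand of the gene, from the RefSeq copy of the assembly WBcel235, which the files call ce11. They are shown because the GATA word recurred in them, and capitals mark each TGATAA, or TTATCA where it is on the other strand.
cpr-4 at chrV:6614502-6614602: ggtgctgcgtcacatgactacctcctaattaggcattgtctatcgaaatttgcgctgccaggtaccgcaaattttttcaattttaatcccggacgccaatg
cpr-3 at chrV:15298753-15298853: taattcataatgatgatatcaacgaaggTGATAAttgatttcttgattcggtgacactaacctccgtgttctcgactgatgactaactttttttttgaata
cpr-1 at chrV:11975372-11975472: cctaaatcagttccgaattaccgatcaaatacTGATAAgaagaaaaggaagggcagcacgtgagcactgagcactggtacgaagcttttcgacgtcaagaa
cpr-6 at chrX:6607116-6607216: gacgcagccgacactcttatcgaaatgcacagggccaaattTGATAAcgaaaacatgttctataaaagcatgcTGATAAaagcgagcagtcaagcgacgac
cpr-5 at chrV:1134010-1134110: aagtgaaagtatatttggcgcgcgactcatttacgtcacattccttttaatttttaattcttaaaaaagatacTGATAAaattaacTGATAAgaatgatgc
asp-1 at chrV:19051555-19051655: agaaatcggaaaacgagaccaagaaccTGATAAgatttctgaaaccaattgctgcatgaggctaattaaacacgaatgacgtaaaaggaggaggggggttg
asp-3 at chrX:6790622-6790722: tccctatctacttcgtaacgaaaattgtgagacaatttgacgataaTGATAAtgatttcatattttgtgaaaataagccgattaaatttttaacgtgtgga

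All 7 genes had a peak in the list called on both replicates together, and 6 of the 7 had it in each replicate on its own. A gene was counted if any summit fell between 1000 bp before and 200 bp after its start. By that rule 19.1% of all protein-coding genes had a peak in the list called on both replicates, which held 7338 peaks. In replicate 1, with 6533 peaks, all 7 had a peak, against 18.2% of all genes. In replicate 2, with 4653 peaks, 6 had a peak, against 13.0%; the exception was asp-3. The conservative list of the series, with 6626 peaks, held all 7, against 17.7%. All 7 also had an entry in the ranked lists, which keep peaks below the threshold: 40.6% of all genes had one for both replicates together, 37.8% for replicate 1 and 39.5% for replicate 2. Start windows reaching only 500 bp before and 100 bp after the start kept all 7, against 15.0% of genes. So did giving each summit to its nearest start, against 20.1%, and using the gene start alone, against 17.4%. Peaks overlapping a peak of each replicate were at 6 of the 7, all but asp-3, against 12%. With 50% of the peak overlapped it was 5, cpr-6 also being lost, against 11.3%. The genes were chosen with results of these data known, so these counts describe them and no test was made. With 2 samples of 1 group no test across samples is possible either. The files hold no read numbers, so the sequencing depth is unknown. Strength is given below as the authors' signal, whose formula the sources used here do not give and whose scale differs between lists. The percentile is the share of peaks in the same list with a lower signal.

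**Figure D1:**
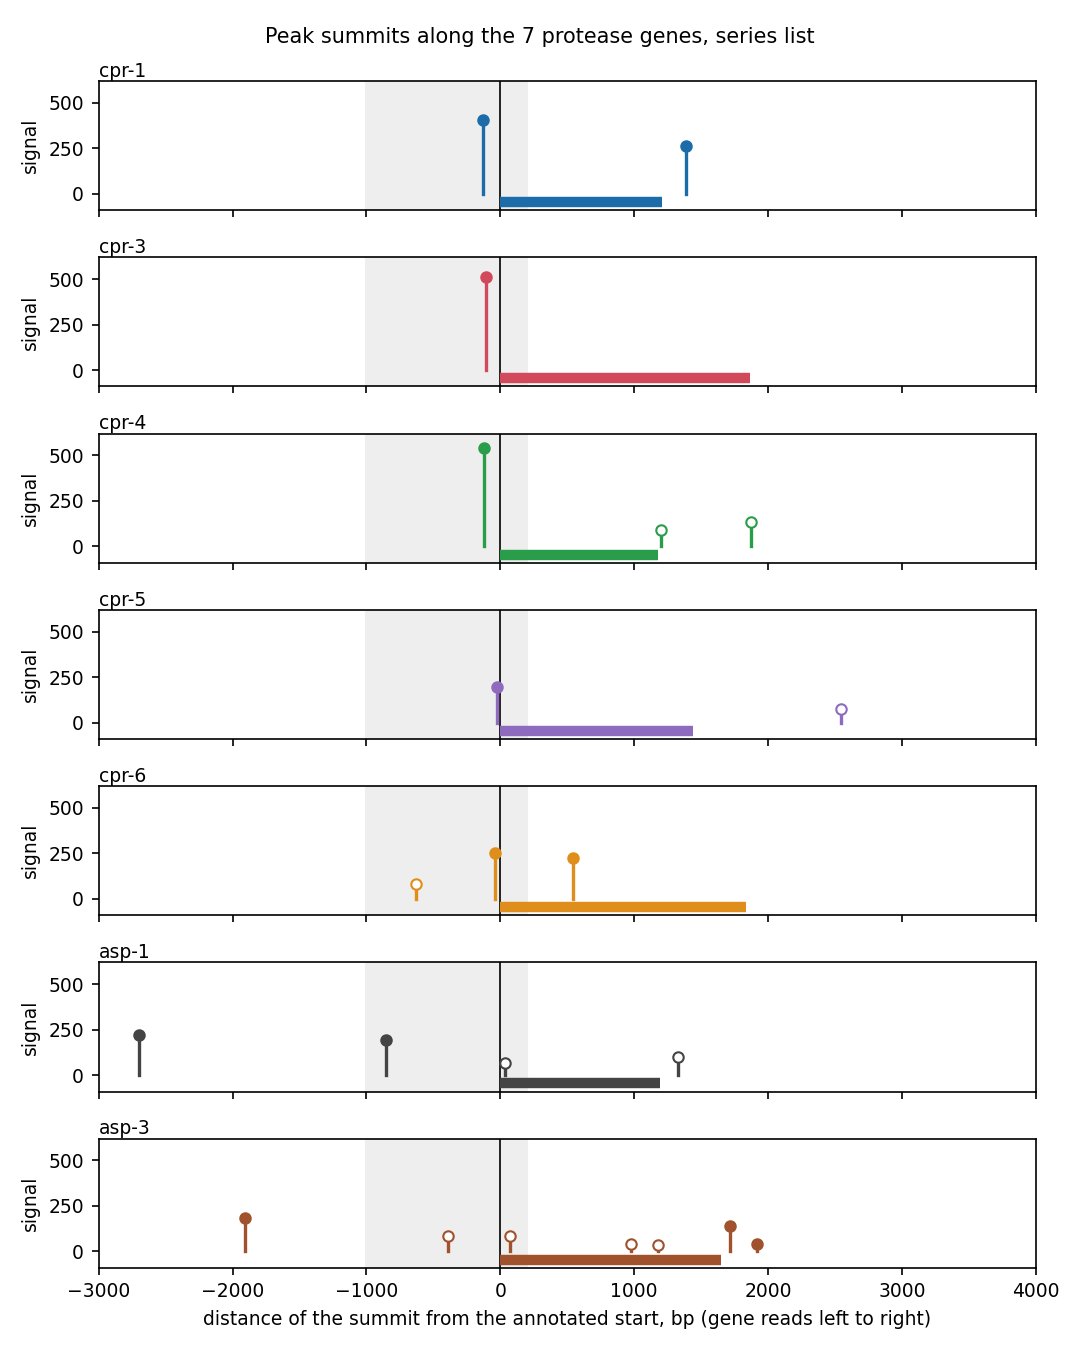
Summits of the list called on both replicates along the 7 genes, by distance from the annotated start in bp (horizontal) and the authors' signal (vertical). Grey marks the start window, thick bars the genes, filled circles peaks that overlap a peak of both replicates and open circles the others. cpr-4, cpr-3 and cpr-1 carry the tallest summits, 103 to 129 bp upstream of the start, and asp-3 carries only weak summits in the grey window.

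cpr-4, cpr-3 and cpr-1 had the strongest peaks, all within 150 bp upstream of the start. cpr-4 encodes a secreted cathepsin B-like protease. It lies on the plus strand of chromosome V from 6614674 to 6615851, and its peak reached from 6614385 to 6614709, with the summit in intergenic sequence 122 bp upstream of the start. The signal was 339.92 in replicate 1, rank 191 of 6533, and 203.98 in replicate 2, rank 360 of 4653. In the list of both replicates it was 542.39, rank 241 of 7338 and the 96.7th percentile. The replicates placed the cpr-4 summit 12 bp apart. Over all peaks found in both replicates the median of that distance was 17 bp.

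cpr-3 lies on the minus strand of V from 15296834 to 15298700. Its peak, from 15298674 to 15298932, had its summit 103 bp upstream of the start, and the replicates placed it within 1 bp of each other. The signal was 332.30 in replicate 1, rank 204, and 174.41 in replicate 2, rank 524, with 509.34 in the list of both, at the 95.7th percentile. In replicate 1 cpr-3 was thus close behind cpr-4, and in replicate 2 further behind.

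cpr-1, a cysteine protease gene expressed in the gut, lies on the plus strand of V from 11975551 to 11976756. Its peak, from 11975286 to 11975582, had its summit 129 bp upstream of the start, inside an exon of the non-coding RNA gene C52E4.17 on the other strand. The signal was 231.66 in replicate 1, rank 659, 162.01 in replicate 2, rank 626, and 406.34 in the list of both, at the 92.2nd percentile. cpr-1 ranked below cpr-4 and cpr-3 in both replicates. These 3 genes were the members among the 1000 strongest peaks, where 3.17% of all genes had a peak.

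cpr-6 and cpr-5 had peaks of middle strength almost at the start site. cpr-6 lies on the plus strand of X from 6607207 to 6609045, and its strongest peak, from 6607039 to 6607243, had its summit 41 bp upstream. The signal was 142.47 in replicate 1, 103.59 in replicate 2 and 252.00 in the list of both, at the 78.5th percentile, and the replicates gave the same summit position. A second peak of nearly equal signal, 222.49, had its summit in an intron of cpr-6, 544 bp downstream of the start. In replicate 1 the intron peak, with its summit 579 bp downstream, was the higher of the pair, with a signal of 147.42. In replicate 2, at 588 bp, it was the lower, with 82.80. A further, weak summit 632 bp upstream had a signal of 80.30 and overlapped no peak of either replicate.

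cpr-5 lies on the minus strand of V from 1132598 to 1134036, with another cathepsin B-like gene, cpr-8, starting 566 bp away on the opposite strand. Its peak, from 1133936 to 1134138, had its summit 24 bp upstream of the cpr-5 start and 542 bp upstream of the cpr-8 start, so it counts for both genes. The signal was 130.18 in replicate 1, 70.62 in replicate 2 and 195.56 in the list of both. In percentiles this was 67.9 in replicate 1 and 40.9 in replicate 2, the widest gap among the 6 members with a peak in both. In the longer ranked lists the same peaks stood at 91.7 and 90.5, so the gap depends on where the lists were cut. A second peak inside cpr-5 was in the replicate 2 list, 625 bp downstream of the start with a signal of 53.67, and in the conservative list, at 628 bp. The nearest entry of replicate 1, at 662 bp, was in the ranked list only, with a −log10 IDR of 0.33. IDR, the irreproducible discovery rate, measures how poorly the rank of a peak is repeated, and a thresholded list needs a −log10 IDR of at least 2.

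**Figure D2:**
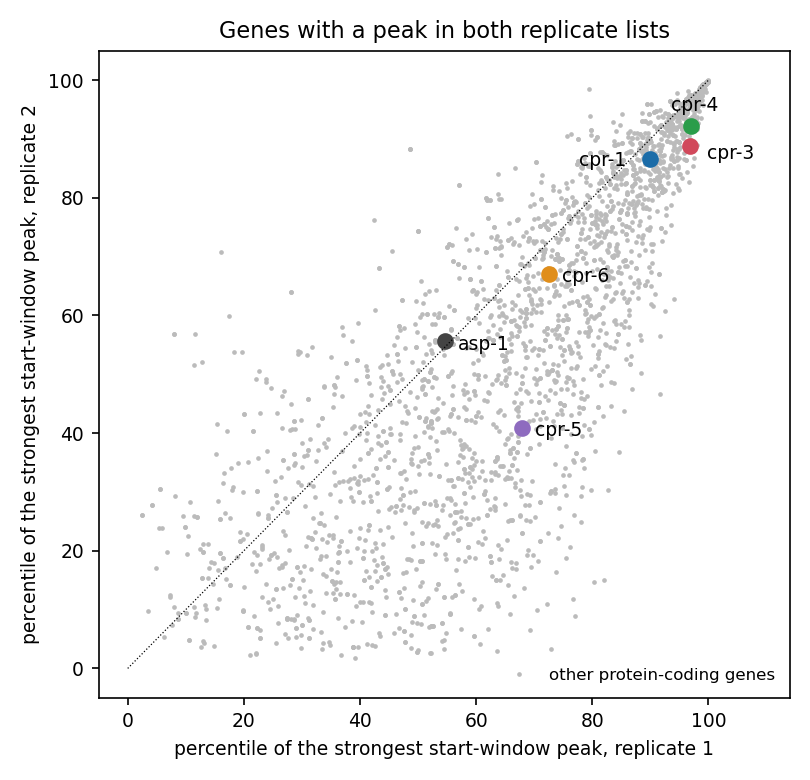
Percentile of the strongest peak in the start window in replicate 1 (horizontal) and replicate 2 (vertical) for genes with a peak in both, with the members coloured and other protein-coding genes in grey; the dotted line marks equal percentiles. cpr-4, cpr-3 and cpr-1 sit at the upper right. In these thresholded lists, which differ in length, cpr-5 lies furthest from the line among the members. asp-3 had no peak in replicate 2 and is not shown.

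In the list of both replicates the aspartyl protease genes had the lowest signals of the 7, asp-1 being close to cpr-5. asp-1 lies on the minus strand of V from 19049562 to 19050752. Its strongest peak in the window, from 19051541 to 19051680, had its summit 853 bp upstream, and the nearest other protein-coding start, that of asp-15, was 5899 bp from the asp-1 start. The signal was 103.48 in replicate 1, 86.14 in replicate 2 and 193.30 in the list of both, at the 66.7th percentile. A stronger peak, with a signal of 220.33, lay outside the window, 2700 bp upstream, and also overlapped peaks of both replicates. At the start of asp-1 itself the list of both held a summit in the coding sequence 32 bp downstream, with a signal of 64.96 at the 7.39th percentile. Replicate 1 had 2 weak summits there, 150 bp downstream (33.04) and 90 bp upstream (21.10). In replicate 2 the nearest was a ranked entry 58 bp upstream, with a −log10 IDR of 1.18, below the threshold. With a narrower window, from 500 bp before to 100 bp after the start, the 32-bp summit was the asp-1 peak.

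asp-3, a lysosomal aspartyl protease known in worms for its part in the necrotic death of neurons, lies on the plus strand of X from 6791064 to 6792709. It had a pair of start-window summits of like signal. The first was intergenic, 392 bp upstream, with a signal of 85.91. The second was in the 5′ UTR, 72 bp downstream, with a signal of 85.01. In replicate 1 the signals were 47.06 for the upstream summit and 56.01 for the downstream one. In replicate 2 both were in the ranked list, at 44.04 and 42.46, but with −log10 IDR of 1.71 and 1.30 they missed the threshold. The 20.3rd percentile of asp-3 was the lowest of the 7. Its stronger peaks were elsewhere: in an intron of sgca-1, 1905 bp upstream of asp-3, with a signal of 182.41, and 70 bp past the 3′ end, with 140.33.

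By signal within each list, the order cpr-4, cpr-3, cpr-1, cpr-6 held in both replicates. cpr-5 and asp-1 changed places, cpr-5 being higher in replicate 1 and asp-1 in replicate 2, so their order is not settled. The median percentile of the 7 was 78.5 in the list of both replicates, against 57.0 over the 3823 genes with a peak. It was 72.6 against 54.6 in replicate 1 and, over 6 members, 76.8 against 54.4 in replicate 2. The strongest summit of 5 of the 7 lay at most 150 bp upstream of the start, as it did for 28.6% of genes with a peak. Of those 5, all were cpr genes. The protein-coding genes outside the list most like cpr-4, by the summed difference of percentiles over the 2 replicates among 2407 genes, were tmem-184, atad-3 and nrde-2. Their differences were 0.68, 0.96 and 0.96 percentile points, atad-3 and nrde-2 sharing a peak.

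Several of the genes carried more than 1 peak. From 3000 bp upstream of the start to 2000 bp past the 3′ end the 7 genes had 22 summits, of which 10 were in the start window and 6 of these overlapped peaks of both replicates. cpr-6, asp-1 and asp-3 had 2 summits in the window, 3 of 7, against 2.90% of all genes. That share is 580 genes, while 3823 had any summit in the window. The weaker summit of cpr-6 overlapped no peak of either replicate. The weaker summit of asp-1 and both of asp-3 overlapped peaks of replicate 1 only. In the conservative list only asp-3 had 2. cpr-3 had a single summit. A summit inside the gene beyond the start window was found in cpr-6 and asp-3, 2 of 7, against 6.19% of all genes. The conservative list had cpr-5 and cpr-6, against 5.52%. Replicate 2 had the same pair, against 4.25%. Replicate 1 had 3, cpr-4, cpr-6 and asp-3, against 5.49%. Thus cpr-6 had such a summit in all 4 lists.

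Peaks also lay just past the 3′ ends, a window of 500 bp that was chosen after the values were seen. In the list of both replicates 4 of the 7 had such a summit, against 5.47% of all genes. It lay 179 bp past the end of cpr-1 (signal 262.01), 23 bp past cpr-4 (89.85), 140 bp past asp-1 (99.45) and 70 bp past asp-3 (140.33). The cpr-1 summit is also in the coding sequence of the next gene, mif-2, a homologue of macrophage migration inhibitory factor. Replicate 1 had 3 of them, cpr-1, asp-1 and asp-3, against 4.86% of all genes. Replicate 2 had 2, cpr-1 and asp-3, against 3.52%. The conservative list had 4, against 4.91%, with cpr-6 in place of asp-1. Each replicate thus had a peak past cpr-1, with summits at 194 bp in replicate 1 and 172 bp in replicate 2. Past asp-3 the summits lay further apart, at 72 bp in replicate 1 and 211 bp in replicate 2. The list of both held a second summit past asp-3, at 276 bp, with a signal of 40.73. The peak past cpr-4 overlapped a replicate 1 peak whose own summit was 26 bp inside the gene.

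Of the 7 words searched, the GATA word was at the strongest summit of the most members. Other sequences were not searched for. TGATAA, counted on both strands, was within 50 bp of the strongest summit of 6 of the 7 genes, against 31.4% of all 7338 summits and 9.13% of windows 350 bp to the left of them. The exception was cpr-4, the strongest. In the other 6, the nearest copy was centred 1.5 bp (asp-3), 6.5 bp (cpr-6), 15.5 bp (cpr-1), 19.5 bp (cpr-3), 20.5 bp (asp-1) and 25.5 bp (cpr-5) from the summit. Over all summits with the word the median was 18.5 bp. cpr-5 and cpr-6 held 2 copies, and 9.27% of all summits held 2 or more. In every one of the 6 it read TGATAA on the strand of the gene. The longer CTTATCA, which contains TGATAA in reverse complement, was at the summits of cpr-1, cpr-5 and asp-1, 3 of 7, against 16.7% of all summits.

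In cpr-4 the GATA word stood to either side of the summit instead. The 250 bp before its start, chrV:6614424-6614673, are shown because they hold 4 copies, in capitals, with the summit between the second and the third.
cpr-4 upstream: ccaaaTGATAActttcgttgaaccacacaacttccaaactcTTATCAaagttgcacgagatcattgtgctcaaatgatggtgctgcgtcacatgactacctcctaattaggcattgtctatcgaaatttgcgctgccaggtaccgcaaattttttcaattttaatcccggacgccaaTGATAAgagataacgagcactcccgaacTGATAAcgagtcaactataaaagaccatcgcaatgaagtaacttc
The copy nearest to the summit began 49 bp downstream of it and was cut off by the end of the summit window. The others began 77 bp downstream, 87 bp upstream and 123 bp upstream of the summit. cpr-3 also had 4 copies in its 250 bp, the first bases lying 177, 168, 125 and 17 bp before the start. Of all protein-coding genes 35 had 4 or more, or 0.175%, and of genes with a peak 0.575% did. cpr-1 and cpr-6 had 2 each, so that 4 of the 7 had at least 2, against 6.40% of all genes and 12.6% of genes with a peak. cpr-5, asp-1 and asp-3 had none there. Their copies at the strongest summit lay across or after the start in cpr-5 and more than 250 bp upstream in the aspartyl protease genes. asp-3 also had 2 copies within 50 bp of its second summit, the one 72 bp downstream of the start.

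**Figure D3:**
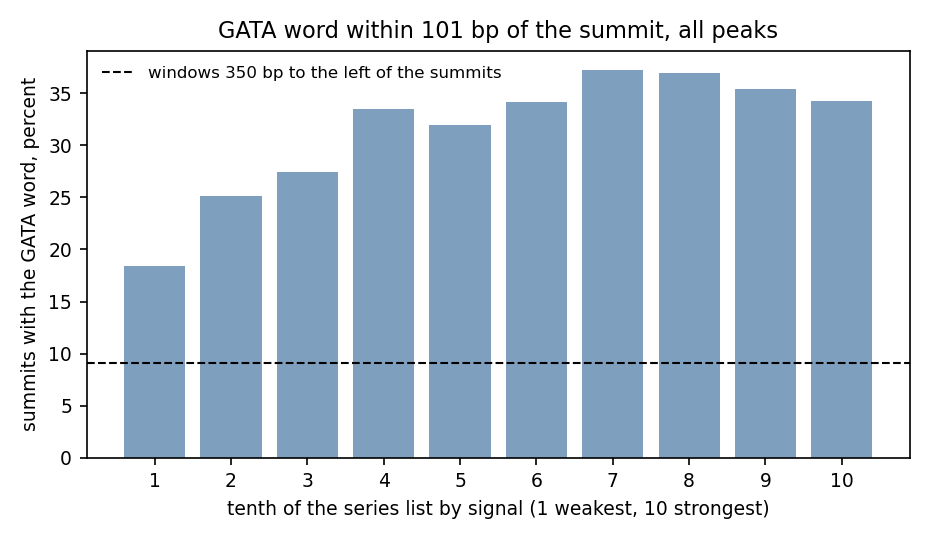
Share of summits with the GATA word within 50 bp (vertical, percent) in 10 equal bins of the list of both replicates, from the weakest to the strongest signal (horizontal); the dashed line is the share in windows 350 bp to the left of the summits. The share is 18.4% in the weakest bin, highest at 37.2% in bin 7, and 34.2% in the strongest. Every bar stands above the dashed line at 9.13%.

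Each of the remaining words was at 0 or 1 of the 7 strongest summits. Their shares over all summits were low, so 7 windows are too few to tell such counts from the background. The DM-domain core ACANTGT was at 0 of the 7, against 3.57% of all summits, and the related ATGTTGC at 0, against 1.59%. From 250 bp before to 50 bp after the start, ACANTGT was found in cpr-1 and cpr-6, 2 of 7, against 8.63% of all genes. ATGTTGC was in 0 of the 7 there, against 3.61%. GTAAACA, the word bound by the forkhead factor DAF-16, was at 0 of the 7 summits, against 2.11% of all summits. The E-box CACGTG, a word bound by basic helix-loop-helix factors, was at cpr-1 alone, beginning 6 bp downstream of the summit, against 6.88%. TATAAA was at cpr-6 alone, against 6.41%. From 250 bp before to 50 bp after the start, TATAAA was in cpr-4, cpr-6 and asp-3, against 37.9% of all genes. GTAAACA was there in cpr-5 alone, against 4.77%, and CACGTG in cpr-1 alone, against 5.82%. Of the weaker start-window summits, that of cpr-6 632 bp upstream held CACGTG and that of asp-3 72 bp downstream held TATAAA. The median G and C content of the 7 windows was 42.6%, against 41.6% over all summits.

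Peaks were also counted at related genes. The lists were taken by gene symbol. Of 78 genes in 6 groups, 32 (41.0%) had a start-window peak in the list of both replicates, against 19.1% of all genes. Without replicate 1 there were 28, against 13.0%, and without replicate 2 there were 35, against 18.2%. The GATA word was at the strongest summit of 22 of those 32 genes. As neighbours share some peaks, this was 21 of 30 distinct peaks, against 31.8% of the 3187 distinct strongest start-window peaks of all genes.

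Among the proteases, 2 of 3 other cpr genes had a peak: cpr-9 (signal 359.66) and cpr-8 (195.56), which shares that of cpr-5. Of 15 other asp genes 6 did, led by asp-6 and asp-12, which share a peak with a signal of 300.95, then asp-4 (212.17), a cathepsin D-like gene, and asp-2 (202.75). Of 11 further cathepsin-like genes 5 did, led by cpz-1, of the cathepsin Z type (388.90), ctsa-1.2 (252.27), cpl-1, of the cathepsin L type (222.74), and ctsa-3.1 (199.90). Both cystatin genes, cpi-2 (135.00) and cpi-1 (133.45), which encode inhibitors of cysteine proteases, had a peak of less than median strength. In the list of both replicates no other protease gene of these groups reached the signal of cpr-1, and in replicate 1 none did. In replicate 2 cpz-1 was higher, at 170.27 against 162.01 for cpr-1.

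The lysozyme and saposin-like genes were also taken by symbol, and whether they are expressed in the gut was not checked here. Of 16 lysozyme genes 6 had a peak, led by ilys-5 (444.86), lys-8 (441.08), lys-2 (267.45) and lys-4 (206.87). Lysozymes cut bacterial cell walls. Of 31 saposin-like genes, whose products are membrane-active proteins, 11 did, led by spp-8 (454.44), spp-18 (383.69), spp-5 (377.73) and spp-3 (364.75). In the list of both replicates ilys-5, lys-8 and spp-8 lay above cpr-1 and below cpr-3 in signal. In replicate 1 spp-18 (243.12) and spp-5 (232.01) were also above cpr-1 (231.66). In replicate 2 ilys-5 (156.04) and lys-8 (150.35) were below cpr-1 (162.01), while spp-8 (163.20) and spp-3 (168.67) were above it.

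**Figure D4:**
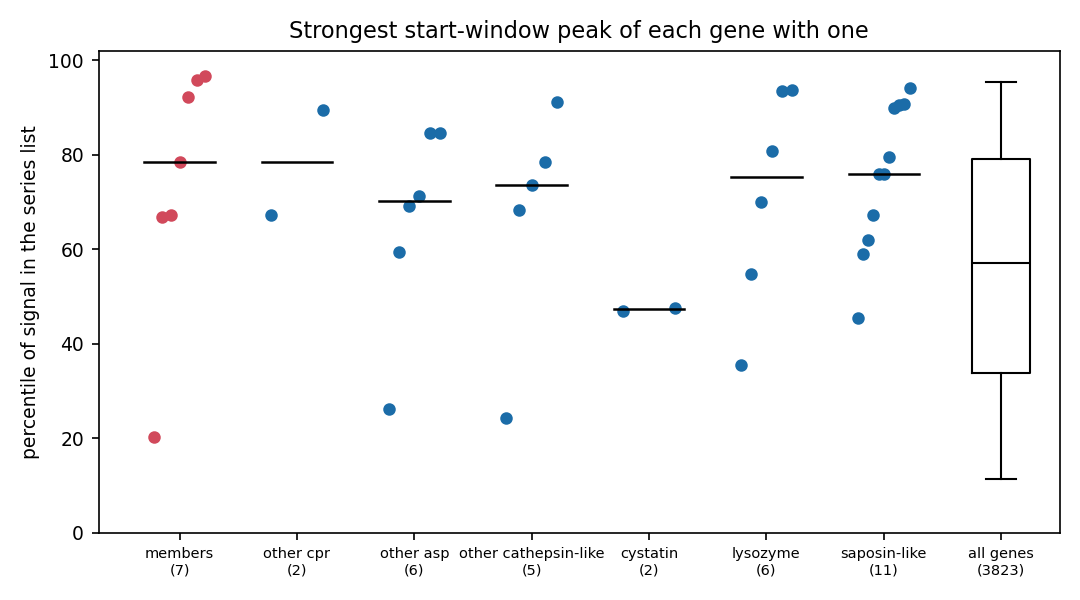
Percentile of the strongest start-window peak in the list of both replicates (vertical) for genes with a peak, by list (horizontal, number of genes in parentheses); each point is a gene, lines are medians, and the box over all 3823 genes shows quartiles with whiskers to the 5th and 95th percentiles. The 7 members span 20.3 to 96.7, with a median of 78.5 against 57.0 over all genes.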

How the data were processed

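ChIP-seq peak lists of 2 replicates on the assembly ce11 were analysed. The sources used here name no aligner or peak caller. Deposited were a thresholded and a ranked list per replicate and 2 of each for the replicates together. Peak signal was used as deposited, and only ranks within a list were compared. A deposited −log10 global IDR accompanies the ranked peaks. All peaks of the thresholded lists were found to reach 2 on that scale. The deposited summit is an offset from the start of the peak.

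Gene models came from Ensembl release 115 and sequence from RefSeq's WBcel235, whose chromosome lengths exceed all peak ends. Python 3.11.15, pandas 2.3.3 and numpy 2.4.6 were used. Every transcript start counted. Words were searched on both strands in windows of 50 bp to either side of a summit. They were also searched from 250 bp before to 50 bp after each gene start. Upstream sequence was read from the genome. The assignment was tested on simulated data. Named were the 7 genes, genes sharing their summits, up to 4 per related list and 3 genes most like cpr-4. The genes, lists and words were chosen with earlier results of these data known. The antibody was against GFP per the description, while another label names dmd-6. The labels do not say whether the replicates came from separate cultures beyond calling them biological.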

Additional observations from a re-analysis of the deposited data

How the results depend on the processing

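Members with a start-window peak numbered 6 without replicate 1 and 7 without replicate 2. Among the 1000 strongest peaks 3 of the 7 remained, and of the 78 related genes 8. In the ranked list, with no threshold, 49 of the 78 had a peak, against 40.6% of all genes. Without replicate 1 or without replicate 2, the members with TATAAA at the summit numbered 1 to 2, and those with a summit past the 3′ end 2 to 3. All 7 had a peak in the narrower start window, where that of asp-1 fell to the 7.39th percentile, and by nearest start site. Peaks overlapping both replicates by at least 1 bp left 6 members, and by 50% of the peak 5, cpr-6 being lost. No paired analysis was possible because there was 1 group.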
